A study of Rattus norvegicus with 4 samples.

Results

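Proteasome subunit genes were followed in rat lens capsules carrying the lens epithelial cells (LECs) that remain after extracapsular clear lens extraction (ECLE), the surgery that empties the lens capsule and leads to posterior capsule opacification. The members were the genes with a single platform symbol of the Psma, Psmb, Psmc and Psmd series or Psme1 to Psme4, each represented by its brightest probe set over the 4 arrays, and 38 genes of the 14217 named on the array met this rule. They comprised 13 subunits of the core particle, 17 of the cap, 4 interferon-induced subunits (*Psmb9*, *Psmb10*, *Psme1* and *Psme2*) and 4 others, namely the assembly chaperones *Psmd5*, *Psmd9* and *Psmd10* and the activator *Psme4*. RNA from female albino Sprague-Dawley rats, operated on at 7 weeks of age, was measured at day 0 right after surgery (1 array, 7 weeks old), at 1 W or 7 days (2 arrays labelled as biological replicates, 8 weeks old) and at 2 W or 14 days (1 array, 9 weeks old). Every animal had undergone ECLE, including those of day 0, so day 0 is an operated control and not an intact lens. The methods of the study name more capsule samples per time than the arrays analysed here, and how these samples map to arrays is not stated.

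The proteasome is a barrel-shaped protease that degrades ubiquitin-tagged proteins. Alpha subunits form its outer rings and gate the entrance, beta subunits form the inner rings that hold the peptidase sites, and the cap binds ubiquitin chains, removes them and threads the substrate in with a ring of ATPases. Interferon induces replacement peptidase subunits, which form the immunoproteasome, and the PA28 activator, and both are known for making peptides for antigen presentation, whereas lens cells depend on the constitutive particle for protein turnover and for the clearance of proteins during fiber differentiation.

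Promoter sequences of 6 members are shown because they contrast the interferon-induced subunits with the constitutive peptidase subunits described after them. They are the 250 bases before the annotated start, read on the strand of the gene, taken from RefSeq (build GRCr8): *Psmb9* chr20:4668750-4668999 (plus strand), *Psmb10* chr19:50743293-50743542 (minus strand), *Psme1* chr15:33038721-33038970 (plus strand), *Psme2* chr15:33052752-33053001 (minus strand), *Psmb5* chr15:32047380-32047629 (minus strand) and *Psmb7* chr3:42827471-42827720 (minus strand). Capitals mark GAAANNGAAA, the letters of an interferon-stimulated response element, in *Psmb10* and *Psme2*, TGACNNNGC, the letters of an antioxidant response element, in *Psmb5*, and CCAAT or its reverse ATTGG in *Psmb7*.
*Psmb9*: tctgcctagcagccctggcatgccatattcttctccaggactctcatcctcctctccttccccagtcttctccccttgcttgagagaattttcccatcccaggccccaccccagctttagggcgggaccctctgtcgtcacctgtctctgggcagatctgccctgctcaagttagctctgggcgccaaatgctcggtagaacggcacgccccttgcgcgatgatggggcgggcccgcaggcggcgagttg
*Psmb10*: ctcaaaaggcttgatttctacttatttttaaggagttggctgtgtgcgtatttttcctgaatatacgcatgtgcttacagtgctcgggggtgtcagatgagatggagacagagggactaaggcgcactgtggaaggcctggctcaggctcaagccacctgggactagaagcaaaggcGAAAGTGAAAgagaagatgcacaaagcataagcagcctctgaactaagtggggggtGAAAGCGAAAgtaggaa
*Psme1*: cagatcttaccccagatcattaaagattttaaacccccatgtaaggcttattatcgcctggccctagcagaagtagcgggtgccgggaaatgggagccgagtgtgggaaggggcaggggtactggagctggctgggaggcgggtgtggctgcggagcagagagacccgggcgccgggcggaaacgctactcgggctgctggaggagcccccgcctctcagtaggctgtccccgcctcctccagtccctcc
*Psme2*: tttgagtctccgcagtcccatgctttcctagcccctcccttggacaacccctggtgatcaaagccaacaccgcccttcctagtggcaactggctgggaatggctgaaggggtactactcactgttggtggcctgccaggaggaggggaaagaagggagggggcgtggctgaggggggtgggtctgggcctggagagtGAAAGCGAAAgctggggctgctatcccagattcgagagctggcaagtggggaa
*Psmb5*: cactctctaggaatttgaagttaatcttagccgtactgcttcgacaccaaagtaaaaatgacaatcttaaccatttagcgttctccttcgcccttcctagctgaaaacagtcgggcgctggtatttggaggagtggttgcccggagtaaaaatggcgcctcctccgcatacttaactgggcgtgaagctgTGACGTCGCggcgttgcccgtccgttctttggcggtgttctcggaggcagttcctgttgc
*Psmb7*: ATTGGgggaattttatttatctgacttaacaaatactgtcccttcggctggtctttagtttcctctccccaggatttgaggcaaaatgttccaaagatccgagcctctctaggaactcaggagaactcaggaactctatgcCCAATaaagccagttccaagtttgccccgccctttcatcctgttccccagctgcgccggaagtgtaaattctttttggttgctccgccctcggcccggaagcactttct

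Both strands were searched, and a promoter table entry was found for 34 of the 38 members, the exceptions being *Psma7*, *Psmd6*, *Psmd12* and *Psmd14*. GAAANNGAAA occurred in 5 of the 34 member promoters (14.7%) and in 3.41% of 33469 rat promoters of the same length. The matches were in 2 core genes (*Psma4* and *Psmb3*), 1 cap gene (*Psmd7*) and 2 of the 4 interferon-induced genes, with 2 matches in *Psmb10* (73 to 64 and 17 to 8 bases before the start) and 1 in *Psme2* (53 to 44 bases before the start), and the match nearer to the start of *Psmb10* has the same letters, GAAAGCGAAA, as that of *Psme2*. The letters TTCNNNGAA of a gamma-activated site, which read the same on both strands, were in 3 of 34 member promoters against 7.67% of all and in 0 of these 4. TGACNNNGC was in 6 of 34 against 10.1% of all, with 1 match in *Psmb5* (60 to 52 bases before the start), and CCAAT was in 16 of 34 (47.1%) against 34.0% of all. CCAAT was held by 9 of 12 core promoters, 5 of 14 cap promoters and 0 of 4 interferon-induced promoters, and none of the marked matches overlaps another. The promoters of *Psmb9* and *Psme1* held none of the 4 motifs in this window. A match is a stretch of letters and was not tested for binding.

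Levels are given as multiples of the mean intensity of the same array, and ratios are those of such levels to day 0, on the log2 scale unless a fold is stated. Before this scaling the mean intensity went from 244 at day 0 to 165 at 2 W, and after it the 10455 genes above a filter on dim signals had median log2 ratios of -0.01 (1 W) and -0.21 (2 W), so member values are set beside these medians. Without the division the medians were -0.20 and -0.78, every ratio at a time being lower by the same amount. All 38 members passed the filter, and 31 of them were among the 2614 brightest genes tested. All 11 lens epithelium markers passed the filter, 4 of them above and 7 below day 0 at 2 W. *Cryab* and *Cryaa*, the brightest 2 over the 4 arrays, were at 37.8 and 30.4 times the array mean at day 0 and 57.6 and 49.2 at 2 W. *Gja1*, the brightest at day 0, was at 43.0 there and 29.6 at 2 W, and *Pax6* was at 16.5 and 8.38. Markers of other tissue differed between times as well: the summed level of 18 macrophage markers was 4.37 at day 0, 25.8 to 38.5 at 1 W and 18.9 at 2 W, that of 10 lens fiber markers 177, 151 to 180 and 397, that of 11 photoreceptor markers 63.3, 6.37 to 26.9 and 8.44, that of 6 pigment cell markers 10.5, 23.5 to 66.4 and 36.2, and that of 12 smooth muscle and fibroblast markers 12.4, 17.3 to 44.3 and 36.6. In the last list *Pdgfra*, the only 1 of 11 tested markers below day 0 at 2 W, was at 10.2 at day 0 and 2.89 at 2 W. The lens fiber sum hid opposite changes at 1 W, when 5 of the 10 lay above day 0 and 5 below. Of these, 4 were under 0.5-fold, as were 388 of the 10455 genes tested. *Crygb*, *Crygc*, *Crygd* and *Bfsp1* had log2 ratios of -8.47, -3.48, -4.86 and -2.11 there, and *Mip* 1.16. The 1 W arrays of *Crygb* differed widely, at -5.64 and -11.3. The 11 lens epithelium markers summed to 236, 222 to 225 and 218, but this sum does not stand for the single markers, which moved in opposite directions. At 2 W *Cryab*, *Cryaa*, *Prox1* and *Maf* were at log2 ratios of 0.61, 0.69, 0.28 and 0.11. The other 7 ran from -0.54 for *Gja1* to -1.89 for *Cdh1*, and the median of the list was -0.77. As deposited, 2 of the 11 lay above day 0 at 2 W and 9 below. *Cdh1* was at 28.0 at day 0 and 7.58 at 2 W. In a bulk sample, a smaller share of cells of a type and less RNA per cell cannot be told apart. The actin 3′/5′ ratio of control probe sets went from 2.32 at day 0 through 1.89 and 1.90 on the 1 W arrays to 1.61 at 2 W, and that of GAPDH was 1.16, 1.12, 1.18 and 1.10 in the same order.

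Proteasome subunit genes were mostly above day 0 after ECLE once arrays were divided by their mean, although on the values as deposited 28 of 38 lay above it at 1 W and 16 at 2 W. None was over 2.0-fold at 1 W, when 4.95% of all tested genes were. At 1 W, 35 of 38 members lay above day 0, against 49.2% of all tested genes, and the members' median ratio was 0.36 on the log2 scale. At 2 W, 31 of 38 lay above, against 37.5% of all tested genes, with a median of 0.38. Of the 2614 brightest genes tested, 1480 lay above day 0 at 1 W and 1275 at 2 W. On each of the 3 arrays after ECLE, 29 members (76.3%) were above day 0, compared with 26.6% of all tested genes and 38.6% of those 2614 brightest genes. Only *Psme2* was below day 0 on all 3 of these arrays, which 36.4% of all tested genes were.

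No member passed limma (adjusted p under 0.05) at 1 W, at 2 W or between them, and across the array limma called 0.0483% of probe sets higher and 0% lower at each time against day 0, and 0 of 18625 probe sets between 2 W and 1 W. The lowest adjusted p of a member was 0.150 at 1 W and 0.0574 at 2 W, both for *Psmb7*, and 0.139 between 2 W and 1 W (limma), for *Psmc3* and *Psme2*. At an unadjusted p under 0.05, 16 members were higher and 0 lower at 1 W, where 10.4% of all tested genes were higher and 8.92% lower, and 17 were higher and 2 lower at 2 W, where 10.8% were higher and 22% lower. Between 2 W and 1 W, 9 were higher and 4 lower, where 6.02% of all tested genes were higher and 18.7% lower. The spread of the test comes from the 2 arrays at 1 W alone, and those arrays differed by a median of 0.12 log2 units over the members, with *Psmd13* the widest at 0.42. The count of calls at 2 W depended on the scaling: limma called 14 members higher after division by the array median (5.09% of probe sets), 4 higher after division by the 75th percentile (1.48%), and 3 higher and 6 lower on the values as deposited (1.85% higher, 41% lower).

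**Figure D1:**
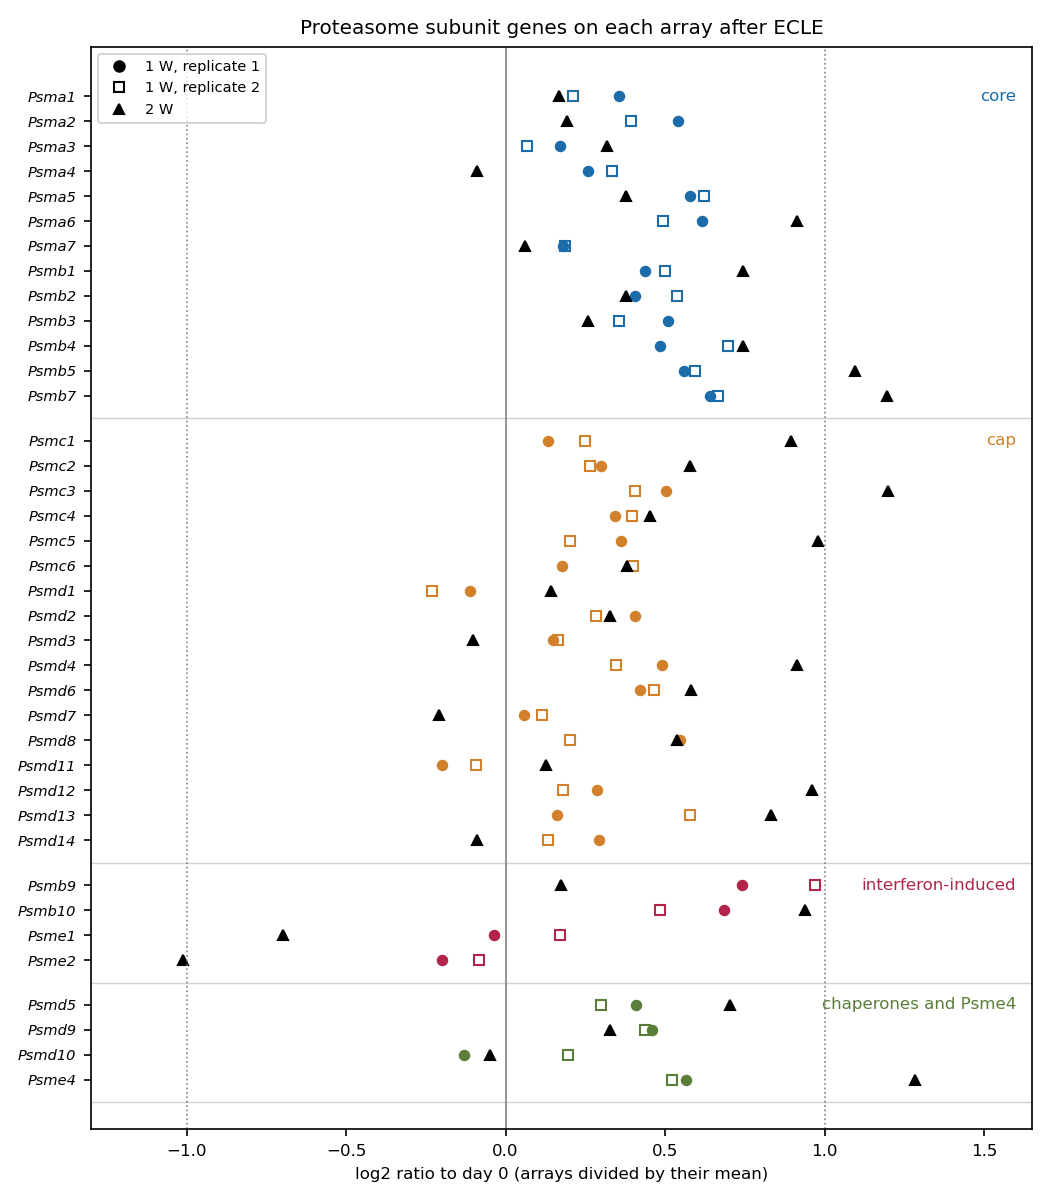
Log2 ratio to day 0 of the 38 proteasome subunit genes, 1 row per gene, grouped as core, cap, interferon-induced, and assembly chaperones with *Psme4*. Filled circles and open squares are replicates 1 and 2 at 1 W, triangles are the array at 2 W, arrays were divided by their mean, and dotted lines mark 2.0-fold and 0.5-fold. Members lie mostly to the right of 0, while *Psme1* and *Psme2* lie to the left at 2 W. On the values as deposited 22 of the 38 triangles would lie to the left of 0.

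Core particle genes were above day 0 at both times, their median log2 ratio being 0.47 (1 W, 0.48 for replicate 1 and 0.49 for replicate 2) and then 0.38 (2 W), while as deposited it was 0.28 and turned to -0.19. All 13 were above day 0 at 1 W and 12 at 2 W. The inner and outer rings differed in size: the 6 measured beta subunits had medians of 0.52 and 0.75 at 1 W and 2 W, and the 7 alpha subunits 0.29 and 0.19. The distance of the core median from that of all tested genes, 0.48 and 0.59 at the earlier and later time, is by construction the same under every scaling by a constant.

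The peptidase subunit *Psmb7*, which carries the trypsin-like site, was at 3.59 times the array mean at day 0, 5.60 and 5.69 on the 1 W arrays and 8.22 at 2 W. The ratios were 1.57-fold at 1 W and 2.29-fold at 2 W, log2 0.65 with a standard error of 0.12 and 1.20 with a standard error of 0.14. *Psmb5*, which carries the chymotrypsin-like site that proteasome inhibitors used in the clinic block, was at 5.44 times the array mean at day 0, 8.02 and 8.21 on the 1 W arrays and 11.6 at 2 W, a ratio of 1.49-fold and 2.13-fold. In both genes the arrays after ECLE all lay above day 0 and the array at 2 W lay highest, and the adjusted p at 2 W was 0.0574 for *Psmb7* and 0.0577 for *Psmb5* (limma). These 2 were the only core genes over 2.0-fold at 2 W, where 6.6% of all tested genes were, and both stayed above day 0 at 1 W and 2 W under all 5 scalings. With the mean over all its probe sets, 2 of them below the filter, *Psmb5* was at -0.012 at 1 W. *Psmb6*, the third constitutive peptidase subunit, was not analysed here because its probe set carries several symbols.

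Alpha subunits spanned a wide range. *Psma6* had the highest alpha ratio at 2 W, with 7.78 times the array mean at day 0, 11.9 and 10.96 on the 1 W arrays and 14.7 at 2 W, log2 0.56 and 0.91. *Psma5* had the highest alpha ratio at 1 W, with 3.33 times the array mean at day 0, 4.98 and 5.14 on the 1 W arrays and 4.33 at 2 W, so that it was nearer to day 0 at 2 W than at 1 W. *Psma3* was at 2.59, 2.92, 2.71 and 3.23 on the arrays of day 0, 1 W replicate 1, 1 W replicate 2 and 2 W, and *Psma7* at 6.24, 7.07, 7.09 and 6.50 in the same order. The log2 ratios of *Psma3* and *Psma7* at 1 W, 0.12 and 0.18, were the smallest of the core, and neither passed limma (adjusted p = 0.679 and 0.460). As deposited, *Psma3* and *Psma7* were below day 0 in their 1 W mean and at 2 W, and *Psma5* was below it at 2 W. Their 1 W replicate 1 lay just above day 0, with intensities of 636 against 634 for *Psma3* and 1538 against 1524 for *Psma7*. *Psma4* was at 3.65, 4.37, 4.60 and 3.43, above day 0 on both arrays at 1 W and 0.09 log2 units below it at 2 W, a sign that turned under median, 75th percentile and quantile scaling.

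Cap genes had a smaller median than core genes at 1 W and a larger one at 2 W, 0.28 and 0.54, with 15 and 14 of 17 above day 0, and as deposited it was 0.09 and -0.03. Within the cap, the 6 genes of the ATPase ring, which unfolds substrates and opens the gate, were all above day 0 on each of the 3 arrays, with medians of 0.28 at 1 W and 0.74 at 2 W, although as deposited the mean of *Psmc1* was below it at 1 W and *Psmc4* and *Psmc6* were below it at 2 W. All 6 were higher at 2 W than at 1 W, where 32% of all tested genes were, by a median of 0.50 log2 units, and that count was 6 of 6 under mean, median, 75th percentile and quantile scaling and 3 of 6 on the values as deposited. The 11 other cap genes had medians of 0.23 and 0.33. Both dimmer probe sets of *Psmc6* lay below day 0 on 1 W replicate 1, at -0.085 and -0.26. The place of *Psmc6* above day 0 on that array thus depends on the probe set.

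*Psmc3* had the largest cap ratio at both times, at 5.15 times the array mean at day 0, 7.31 and 6.82 on the 1 W arrays and 11.8 at 2 W. Its log2 ratios were 0.45 and 1.20 (1 W and 2 W, standard errors 0.12 and 0.14, adjusted p = 0.217 and 0.0577 from limma), and the 2 W array was the highest of the 4. *Psmc5*, also of the ATPase ring, was at 2.79, 3.59, 3.21 and 5.51 on the arrays of day 0, 1 W replicates 1 and 2 and 2 W, with a log2 ratio of 0.98 at 2 W (adjusted p = 0.0665 from limma). *Psmd6*, a subunit of the cap's lid, was at 4.82, 6.45, 6.65 and 7.21 and thus at a like height at 1 W and 2 W.

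A few non-ATPase cap genes lay close to day 0. *Psmd1*, a large scaffold of the cap's base, was at 1.43 times the array mean at day 0, 1.32 and 1.21 on the 1 W arrays and 1.57 at 2 W, and the lid subunit *Psmd11* was at 3.28, 2.86, 3.07 and 3.57. Both were below day 0 at 1 W, with log2 ratios of -0.17 and -0.15, and above it at 2 W, with 0.14 and 0.13, but their 2 W values were below day 0 as deposited. *Psmd7* was at 2.35, 2.44, 2.54 and 2.03, and *Psmd3* at 1.46, 1.62, 1.63 and 1.36, so that these lid subunits were lower at 2 W than on any other array. *Psmd14*, the deubiquitinase that works as a pair with *Psmd7*, was at 3.59, 4.39, 3.94 and 3.37. The 2 W ratios of *Psmd3*, *Psmd7* and *Psmd14*, -0.10, -0.21 and -0.09, turned above 0 under median, 75th percentile and quantile scaling, and their adjusted p was 0.720, 0.432 and 0.740 (limma).

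A total of 29 members had 1 probe set, and the other 9 had 14 dimmer probe sets, of which 9 passed the filter. Among those 9 the direction opposed that of the brightest probe set in 2 at 1 W and in 3 at 2 W. For *Psmd7* the dimmer one gave -0.04 at 1 W and 0.25 at 2 W, and for *Psmd11* it gave 0.15 at 1 W. Both dimmer probe sets of *Psmd14* were above day 0 at 2 W, at 0.67 and 0.64, against -0.09 for the brightest, so the direction of *Psmd14* at 2 W depends on the probe set. With the mean over all probe sets of a gene, dim ones included, 3 members changed sign at 1 W (*Psmb5*, *Psmc4* at -0.20 and *Psme1* at -0.13) and 3 at 2 W (*Psmc4* at -0.41, *Psmd7* at 0.021 and *Psmd14* at 0.41).

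The interferon-induced subunits did not share a direction. The group had a median log2 ratio of 0.32 (1 W) and -0.26 (2 W), and the 2 W value was 0.01 under median scaling, 0.05 under 75th percentile scaling, -0.09 under quantile scaling and -0.83 as deposited. The median rests on a split within the group: both peptidase subunits lay above day 0 at 1 W and 2 W (*Psmb9* below it at 2 W as deposited), and both PA28 subunits lay below it at 2 W.

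*Psmb9*, the immunoproteasome subunit that takes the place of *Psmb6*, was at 0.696 times the array mean at day 0, 1.16 and 1.36 on the 1 W arrays and 0.784 at 2 W. Its 1 W ratio of 1.81-fold (log2 0.85, standard error 0.20, adjusted p = 0.183 from limma) was the largest of all 38 members at that time. The array at 2 W lay between day 0 and both 1 W arrays, with a ratio of 1.13-fold that turned below day 0 (log2 -0.39) as deposited. *Psmb10*, which takes the place of *Psmb7*, was at 0.623 at day 0, 1.00 and 0.870 on the 1 W arrays and 1.19 at 2 W. It thus lay above day 0 on all 3 arrays, highest at 2 W except on the values as deposited, with log2 ratios of 0.58 and 0.94 (adjusted p = 0.256 and 0.0915 from limma), and it stayed above day 0 under all 5 scalings. The log2 difference between 2 W and 1 W was -0.68 for *Psmb9* and 0.35 for *Psmb10*, with standard errors of 0.20 and 0.19 and adjusted p = 0.184 and 0.350 (limma).

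The PA28 subunits *Psme1* and *Psme2*, which form a ring-shaped activator that opens the core without ATP or ubiquitin, were both lowest at 2 W. *Psme1* was at 8.57 times the array mean at day 0, 8.35 and 9.64 on the 1 W arrays and 5.28 at 2 W. *Psme2* started at 3.12 and was at 2.72 and 2.94 on the 1 W arrays and 1.55 at 2 W. For each the 1 W arrays lay near day 0 and the 2 W array well below, where the ratios were 0.616-fold and 0.496-fold, log2 -0.70 and -1.01 with standard errors of 0.17, and the adjusted p was 0.0926 and 0.0651 (limma). *Psme2* was the only member under 0.5-fold at 2 W, where 12.3% of all tested genes were, and both genes were below day 0 at 2 W under all 5 scalings. Against 1 W the 2 W values were lower by log2 0.76 and 0.87, with adjusted p = 0.144 and 0.139 (limma).

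*Psme4*, which encodes the alternative activator PA200, had the largest 2 W ratio of the 38 members. Its level was 1.33 times the array mean at day 0, 1.96 and 1.90 on the 1 W arrays and 3.22 at 2 W, a ratio of 1.46-fold and 2.43-fold (log2 0.54 and 1.28, adjusted p = 0.208 and 0.0577 from limma). Its 2 W array was thus the highest of the 4, where those of the PA28 subunits were the lowest. Its dimmer probe sets gave 0.27 and 1.20 at 2 W, in the same direction. The assembly chaperones, which hold parts of the ATPase ring together before it joins the core, ranged more narrowly. *Psmd5* was at 1.80, 2.39, 2.21 and 2.93 on the arrays of day 0, 1 W replicates 1 and 2 and 2 W, *Psmd9* at 0.685, 0.942, 0.928 and 0.860, and *Psmd10* at 0.867, 0.792, 0.993 and 0.839. *Psmd5* was thus above day 0 throughout, and the 1 W arrays of *Psmd10* lay on either side of day 0.

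**Figure D2:**
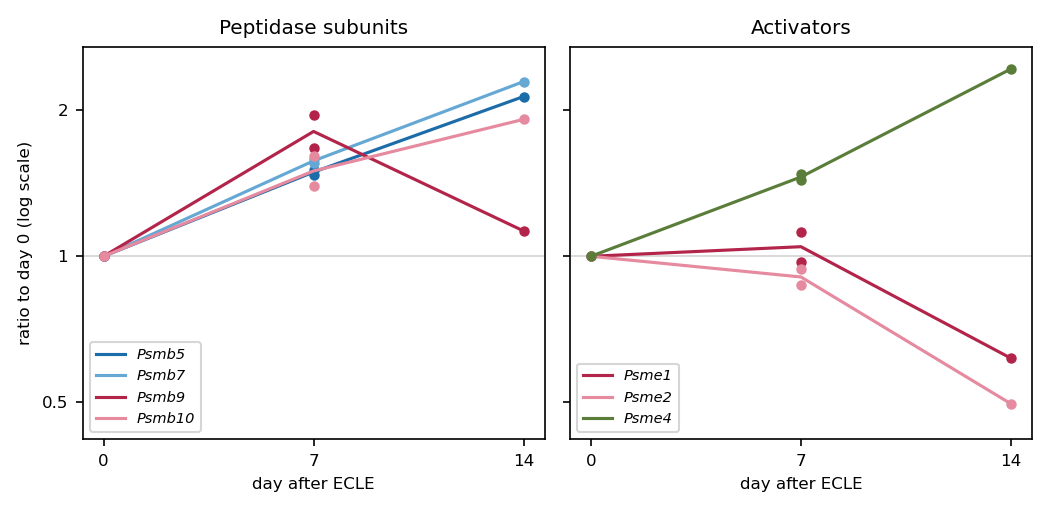
Ratio to day 0 on a log axis against days after ECLE, for the peptidase subunits *Psmb5*, *Psmb7*, *Psmb9* and *Psmb10* and for the activators *Psme1*, *Psme2* and *Psme4*. Points are single arrays divided by their mean, and lines join day 0, the geometric mean of both 1 W arrays and 2 W. *Psmb9* is highest at 1 W (1.81-fold) while *Psmb7* (2.29-fold) and *Psme4* (2.43-fold) are highest at 2 W, and *Psme2* (0.496-fold) is lowest there. As deposited, *Psmb9* at 2 W and *Psme1* at 1 W would lie below day 0.

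Markers of other cells moved alongside these values. Of 18 macrophage markers 16 passed the filter, and 14 of them exceeded 2.0-fold on all 3 later arrays (2.51% of all tested genes did), the summed level given above being highest at 1 W. That count is partly set by the filter, which took the mean level over the 4 arrays. Markers dim at day 0 could pass through the later arrays, and *Fcgr2b*, *Ptprc* and *Aif1* were at percentiles 15.7, 29.5 and 29.8 of the day 0 array. No macrophage marker was at 0 on any array, and the dimmest at day 0, *Itgam*, was at 0.0245 times the array mean there and at 0.0694, 0.0655 and 0.0575 on the later arrays. None of 14 lymphocyte markers passed the filter, and their summed level was 0.527, 0.645 to 0.714 and 0.881 at day 0, 1 W and 2 W. All 10 measured lens fiber markers were above day 0 at 2 W, with a median log2 ratio of 1.35, while lens epithelium markers had a median of -0.77. As deposited, 8 of the 10 lens fiber markers were above day 0, and the medians were 0.78 and -1.34. Of the smooth muscle and fibroblast markers, limma called *Tagln* and *Col1a1* higher at both times, *Tagln* at 5.94 and 4.75 and *Col1a1* at 4.34 and 5.23 (log2, 1 W and 2 W). Both were dim at day 0, at 0.103 and 0.104 times the array mean. The part of these cell types in the proteasome values was not tested.

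**Figure D3:**
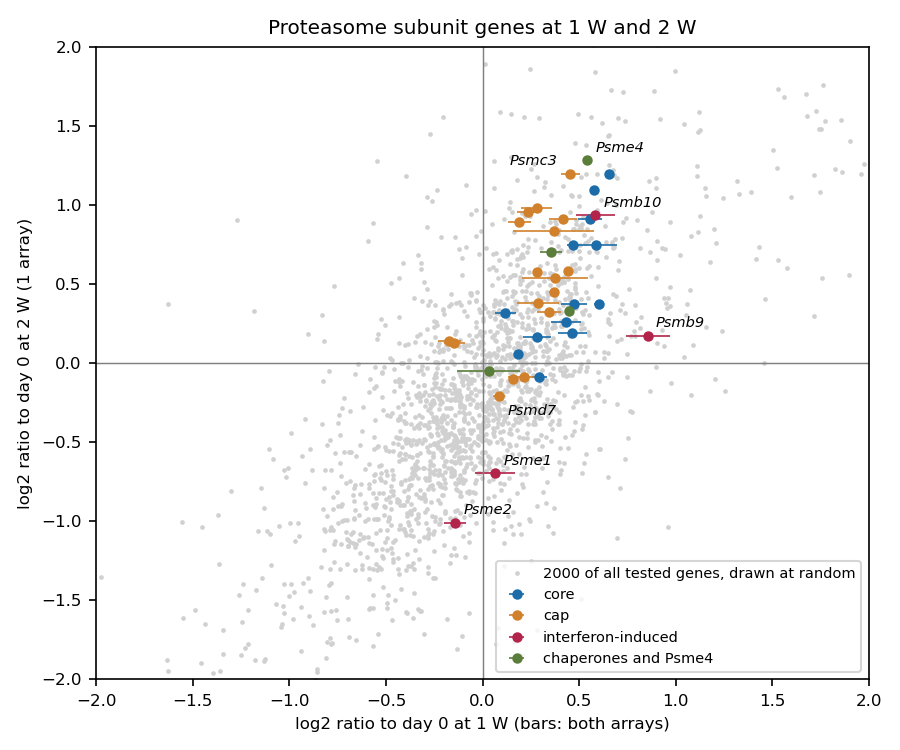
Log2 ratio to day 0 at 2 W (1 array) against that at 1 W (mean of 2 arrays, with bars from the lower to the higher array) for the 38 members in colour, over 2000 tested genes drawn at random in grey; points beyond the axes are not drawn. Both ratios share the day 0 array. Core and cap genes lie mostly in the upper right, *Psmb9* stands at the right (0.85 at 1 W, 0.17 at 2 W) and *Psme1* and *Psme2* at the bottom (-0.70 and -1.01 at 2 W), positions that shift together under another scaling and put *Psmb9* below 0 at 2 W as deposited.

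Genes that work with the proteasome were described from lists, and limma called none of their members at any time. Their ratios are those of arrays divided by their mean and shift with the scaling like those of the subunits, lower as deposited and higher under median and 75th percentile scaling. Of 7 measured assembly factors and inhibitors, all lay above day 0 at 1 W and 5 at 2 W (medians 0.24 and 0.13). *Pomp*, the chaperone that matures the beta ring, was at 5.86, 7.52, 7.73 and 8.95 on the arrays of day 0, 1 W replicates 1 and 2 and 2 W, with a log2 ratio of 0.61 at 2 W (adjusted p = 0.0864 from limma). *Ecpas*, a scaffold that binds the proteasome, had log2 ratios of 0.045 and 0.26. Of 10 ubiquitin receptors, deubiquitinases and small cap partners, 7 lay above day 0 at 1 W and 8 at 2 W (medians 0.11 and 0.21). *Rad23b*, a shuttle that carries ubiquitinated proteins to the cap, had log2 ratios of 0.30 and 0.26. *Sem1*, a small lid subunit outside the symbol rule, was at 6.73, 9.19, 9.19 and 11.1, whereas *Ube3a*, a ubiquitin ligase that binds the cap, had log2 ratios of -0.40 and -0.49. The ubiquitin-activating enzymes *Uba1* and *Uba6* were at 0.59 and -0.40 at 2 W. Of 7 genes of the p97 complex, the ATPase that extracts substrates for the proteasome, 6 lay above day 0 at each time (medians 0.36 and 0.37). *Vcp*, p97 itself, was at 0.37 at both times, *Ufd1*, its substrate adaptor, at 0.36 and 0.35, and *Ubxn1*, a p97 cofactor, was the only one over 2.0-fold, with a log2 ratio of 1.17 at 2 W (adjusted p = 0.0577 from limma).

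Genes known to control proteasome transcription had lower medians than the core and cap. Of the 7, 4 lay above day 0 at 1 W and 2 at 2 W, with medians of 0.06 and -0.46. *Nfe2l1*, the factor that drives subunit genes when proteasome activity is short, was at 0.11 and 0.23, *Ngly1*, the enzyme that removes its sugars, at 0.33 and 0.20, and *Ddi2*, the protease that activates it, was at 1.12 times the array mean at day 0, 0.934 and 0.893 on the 1 W arrays and 0.535 at 2 W, a log2 ratio of -1.07 at 2 W (adjusted p = 0.0740 from limma). Of 18 tested genes of the interferon response and peptide loading, 17 lay above day 0 at 1 W and 8 at 2 W, with medians of 0.54 and -0.09, and at 2 W the count was 14 and the median 0.19 under median scaling, 15 and 0.23 under 75th percentile scaling, and 3 and -0.66 as deposited. The 1 W median was 0.69 for replicate 1 and 0.36 for replicate 2, and 14 of the 18 lay above day 0 on both. *B2m*, the light chain of class I molecules, was at 10.9, 21.0, 16.6 and 14.4, highest at 1 W like *Psmb9*, and *Jak1*, a kinase of the interferon receptors, had log2 ratios of 0.26 and -0.12. *Tap1*, the peptide transporter gene that lies next to *Psmb9* in the RefSeq gene order, was at 0.255 at day 0, 0.417 and 0.358 on the 1 W arrays and 0.223 at 2 W, and so was above day 0 on both 1 W arrays and, at a log2 ratio of -0.20, below it at 2 W, where it was at 0.078 and 0.12 under median and 75th percentile scaling. *Gbp2*, an interferon-induced GTPase, had the largest ratios of this list, 4.21 at 1 W and 3.90 at 2 W (adjusted p = 0.0828 and 0.0553 from limma). Its level was 0.124 at day 0, 1.81 and 2.91 on the 1 W arrays and 1.85 at 2 W, so both ratios rest on a dim day 0 value.

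**Figure D4:**
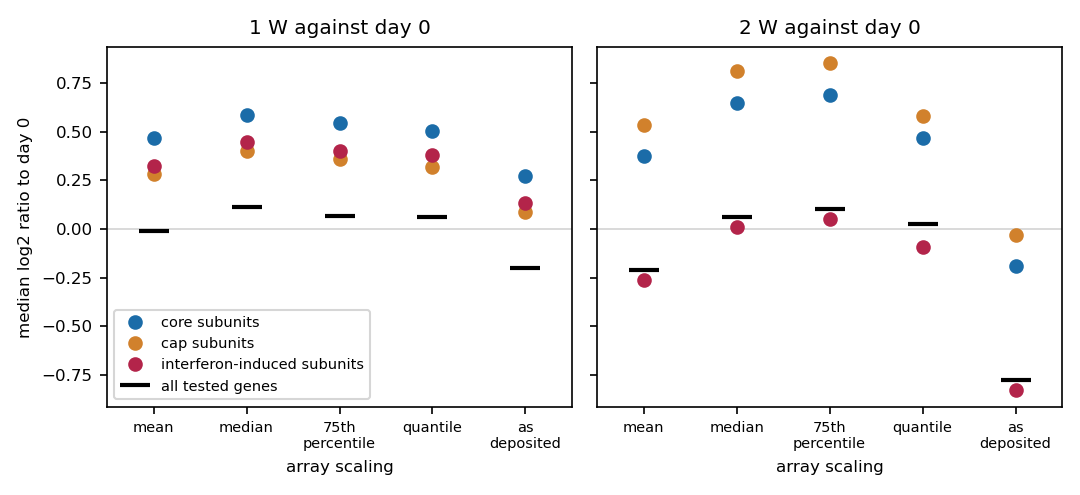
Median log2 ratio to day 0 of core, cap and interferon-induced subunits (coloured points) and of all tested genes (black bars) at 1 W and 2 W, for arrays divided by their mean, median or 75th percentile, quantile normalized, or as deposited. Core and cap medians lie above the bar of all tested genes in each setting (at 2 W 0.38 and 0.54 against -0.21 with mean scaling), and the interferon-induced median lies below it at 2 W (-0.26). As deposited, the core and cap medians at 2 W are below 0.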

How the data were processed

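The authors labelled RNA of lens capsules, hybridised it to Affymetrix rat genome arrays and deposited 31099 probe set values on a linear intensity scale, made with Affymetrix Expression Console per the submitters' processing notes. The sources used here do not give the summary algorithm or any scaling target, and no detection calls were used. From these intensities, 57 control probe sets were left out, each array was divided by its mean as the methods name it, and log2 was taken. Of the 31042 probe sets left, 20826 had a single symbol in the platform annotation, 436 several and 9780 none, and symbols were used as given there. The dimmest probe sets, under the 40th percentile of the mean log2 level, were left untested, and the other 18625 went into limma 3.58.1 under R 4.3.3 (lmFit and trended eBayes on 3 groups, two-sided, p-values adjusted by Benjamini-Hochberg over all of them, threshold 0.05), with 1 residual and 3.12 prior degrees of freedom, and day 0 and 2 W (1 array each) were assumed to vary like 1 W. The scripts used Python 3.11.15, numpy 2.4.6, pandas 2.3.3 and matplotlib 3.10.9. A run on simulated arrays required only that limma recovered the mean log2 differences added to them, and set no requirement on its calls.

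The members, groups and gene lists were chosen with earlier results of these data known, so counts over them are descriptions. Genes named are all interferon-induced and other members, *Psmb5* and *Psmb7*, the 2 highest and 2 lowest core and cap members at each time, members past 2.0-fold or 0.5-fold or with opposing probe sets, and of each pathway list the 2 brightest. Cell type lists are given by sums, by the genes limma called and, for lens epithelium, by the 2 brightest. *Psma6*, *Ube3a*, *Ubxn1*, *Ddi2*, *Tap1*, *Gbp2*, *Itgam*, *Pax6*, *Gja1*, *Cdh1* and *Pdgfra* and the genes named for a motif or a change of sign were picked after their values were seen. So were the lens fiber markers named, *Prox1*, *Maf*, *Fcgr2b*, *Ptprc* and *Aif1*. Promoters come from the RefSeq table of GRCr8. Some genes are not reported here. Alternatives were 4 other scalings, a floor at the 20th percentile, filters at the 60th percentile or none, untrended and robust limma, 1 probe set per gene or the mean of all, all 3 arrays after ECLE as 1 group, and each 1 W replicate left out. The number of arrays limits the precision.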

Additional observations from a re-analysis of the deposited data

Results flagged for a closer look

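For 6 members the array at 2 W lay on the other side of day 0 from both arrays at 1 W. *Psma4* was above day 0 at 1 W and at -0.09 at 2 W (log2 ratio), and *Psmd3*, *Psmd7* and *Psmd14* did the same with -0.10, -0.21 and -0.09. *Psmd1* and *Psmd11* were below day 0 at 1 W and at 0.14 and 0.13 at 2 W. The difference between 2 W and 1 W did not pass limma for any of them, with adjusted p = 0.213 for *Psma4*, 0.376 for *Psmd3*, 0.304 for *Psmd7*, 0.303 for *Psmd14*, 0.333 for *Psmd1* and 0.327 for *Psmd11*. All 6 signs at 2 W depended on the scaling, and no group had enough arrays for a single array to be tested as standing apart.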

How the results depend on the processing

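Limma called 0 members in each comparison, and alternatives gave other counts only through the scaling. At 2 W against day 0 it called 14 members after median scaling, 4 after 75th percentile scaling and 9 on the values as deposited (3 higher and 6 lower). At 2 W against 1 W it called 8, all lower, as deposited, where it called 22.7% of all probe sets lower and 1.04% higher. Quantile scaling, both other filters, the floor, limma without a trend or robust, 1 probe set per gene, the mean of all probe sets and all arrays after ECLE as 1 group gave 0. Under median, 75th percentile and quantile scaling and as deposited, in that order, the median log2 ratio of core subunits was 0.59, 0.54, 0.50 and 0.28 for 1 W and 0.65, 0.69, 0.47 and -0.19 for 2 W, that of cap subunits 0.40, 0.36, 0.32 and 0.0892 for 1 W and 0.81, 0.85, 0.58 and -0.0301 for 2 W, and that of interferon-induced subunits 0.45, 0.40, 0.38 and 0.13 for 1 W and 0.0114, 0.0534, -0.0895 and -0.83 for 2 W. With the mean over all probe sets of a gene the interferon-induced median was 0.23 for 1 W and -0.0616 for 2 W. Leaving out a 1 W replicate gave 0.483 to 0.494 for core and 0.250 to 0.291 for cap subunits at 1 W. With a 1 W replicate left out, limma cannot estimate a spread, and those settings give medians and no test.

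A log2 ratio changed sign at 2 W in 5 members under median, 75th percentile and quantile scaling and in 15 as deposited. Above day 0 under all 5 scalings were 28 members at 1 W and 16 at 2 W, and below it were 3 and 2. The cause was not tested. No paired analysis was possible because the labels number only the arrays at 1 W. Day 0 and 2 W hold 1 array each, signal over background is unknown without detection calls, and dim probe sets are the least certain.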
